A study of Mus musculus with 9 samples.

Results

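The genes described here are 46 genes of DNA replication licensing and of the replication fork, read in the transcriptomes of cultured mouse oligodendrocyte progenitor cells (OPCs), the dividing precursors of myelin-forming cells. They were chosen by gene symbol from a list of replication factors, all 46 were found among the 56980 genes of the count table, and all 46 passed the filter on low counts, which left 17001 genes. The 9 libraries fall into 3 groups of 3: OPC lines that lack p53 and express PDGF-BB, treated with 5 µM tazemetostat, an inhibitor of the histone methyltransferase EZH2, for 48 hours (BB-p53n EZH2i); the same PDGF-BB lines with the vehicle DMSO (BB-p53n DMSO); and OPC lines that lack p53 only and are labelled as control (p53n). All 3 groups carry the genotype Trp53 -/- and were kept with 10 ng/mL PDGF-AA, so each comparison was made on a p53-deficient background with a PDGF ligand present. DMSO is named for PDGF-BB cells and not for p53n cells, so PDGF-BB and vehicle cannot be told apart in the comparison of BB-p53n DMSO with p53n. The labels describe neither the construct that carries PDGF-BB nor the number of clones or cultures behind a group. The p-values below therefore reflect how far these libraries of a group scatter, and that scatter could be technical.

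Before S phase, the origin recognition complex marks replication origins, and CDC6 and CDT1 load the ring of MCM subunits onto them, a step called licensing that geminin blocks once S phase has begun. The kinase CDC7 with its partner DBF4, together with cyclin-dependent kinases, then recruits CDC45 and the GINS complex, which turn the loaded ring into the active helicase. Polymerases, the sliding clamp with its loader, single-strand binding proteins and nucleotide-making enzymes work at the resulting fork, and many of these genes are known targets of E2F transcription factors in dividing cells.

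Depth was 19471768 to 34557109 fragments per library, and levels are given as CPM, fragments scaled to a common library size. Fold changes are log2 values with standard errors (SE) from edgeR's quasi-likelihood test on the counts, and a gene was called when its Benjamini-Hochberg adjusted p over all tested genes was below 0.05. Endogenous Pdgfb received 3 to 6 fragments in BB-p53n EZH2i, 4 to 8 in BB-p53n DMSO and 0 to 1 in p53n libraries, so this gene does not check the PDGF-BB label. Trp53 still gave 244 to 372 fragments in BB-p53n EZH2i, 406 to 483 in BB-p53n DMSO and 165 to 200 in p53n libraries, which checks no deletion because the deleted part is not given. The drug inhibits the EZH2 enzyme. Its transcript Ezh2 was at 107 to 116 CPM in BB-p53n EZH2i, 170.1 to 173 CPM in BB-p53n DMSO and 110.1 to 116 CPM in p53n, lower in every drug-treated library than in every vehicle library. OPC markers summed to 5484 to 5689 CPM in BB-p53n EZH2i, 7331 to 7373 CPM in BB-p53n DMSO and 9194 to 9745 CPM in p53n, and all 12 were detected in each group, but they did not move together. Sox10, a transcription factor of the oligodendrocyte lineage, was at 452 to 470.0 CPM in BB-p53n EZH2i, 284 to 317 CPM in BB-p53n DMSO and nearly absent in p53n, at 1.87 to 2.40 CPM. Its drug value was 0.62 as counted, but -0.23 and called lower with the GC and length trend described below removed. Of the other OPC markers, Vcan (-1.97), Ptprz1 (-1.88), Lhfpl3 (-1.63), Gpr17 (-1.19) and Pdgfra (-0.93) were called lower with the drug as counted. Olig1 (0.59), C1ql1 (0.50), Cspg4 (0.41) and Nkx2-2 (0.39) were called higher, and Olig2 and Cacng4 were not called. Without the trend all of these were called lower except Cspg4 (0.14), which was not called. In BB-p53n DMSO against p53n, Sox10 (7.07), Cspg4 (0.83), Cacng4 (0.81), Olig2 (0.59) and C1ql1 (0.54) were called higher, Gpr17 (-3.85), Nkx2-2 (-1.26), Lhfpl3 (-0.99), Pdgfra (-0.61), Vcan (-0.59) and Ptprz1 (-0.22) lower, and Olig1 was not called. Removing that trend left C1ql1 (0.12) not called and Olig1 (-0.17) called lower, and kept the other calls. Markers of neurons summed to 626 to 740.1 CPM in BB-p53n EZH2i, 1693 to 1847 CPM in BB-p53n DMSO and 2053 to 2080 CPM in p53n. Most of that sum was Map2, at 382 to 507 CPM in BB-p53n EZH2i, 1360.0 to 1491 CPM in BB-p53n DMSO and 1477 to 1506 CPM in p53n. With the drug Dcx (-1.95), Snap25 (-1.83), Map2 (-1.67) and Syt1 (-0.82) were called lower, Rbfox3 (2.21), Syp (1.78), Tubb3 (1.20) and Nefl (1.05) higher, and Nefm was not called, so the list went both ways. With that trend removed Dcx (-0.37), Snap25 (-0.42) and Map2 (-0.81) stayed lower, Nefm (-0.75) was also lower, and Syt1 (-0.17) was not called. Rbfox3 (1.58), Syp (2.30), Tubb3 (0.30) and Nefl (0.98) stayed higher. Those of oligodendrocytes summed to 373 to 400.1 CPM in BB-p53n EZH2i, 242 to 262 CPM in BB-p53n DMSO and 838 to 884 CPM in p53n, and those of astrocytes to 1259 to 1383 CPM, 1173 to 1201 CPM and 1905 to 2094 CPM in BB-p53n EZH2i, BB-p53n DMSO and p53n, with Aqp4 at 0 in BB-p53n EZH2i. Markers of microglia did not exceed 21.7 CPM, of endothelium 22.4 CPM and of mural cells and fibroblasts 4.66 CPM in any library, and C1qa, which defines microglia, was at 0 in every group. The part of these markers in the results below was not tested. In such bulk samples, fewer cells of a type and less RNA per cell cannot be told apart, and a higher share of cells in S phase cannot be told apart from more replication RNA per cell.

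Promoter sequence was available from RefSeq (build GRCm38.p6, 250 bases before to 50 after the annotated start) for 36 of the 46 genes, in 41 windows. Mcm4, Gmnn, Ccne2, Gins1, Gins2, Gins4, Prim2, Pole, Rfc2 and Tipin had no entry. The E2F letters TTTCCCGC, TTTGGCGC, TTTCGCGC and TTTGCCGC were searched on both strands, and overlapping matches were kept. At least 1 was found in 12 of the 36 genes (33.3%), against 2.6% of 27025 genes in the whole promoter table, 39% of 41 other replication genes and 5.88% of 17 genes of G2 and M phase. The letters CCAAT, bound by NF-Y, were in 53.7% of the windows, against 37.4% of all windows, and TTTGAA, the letters of the cell cycle homology region typical of mitotic genes, in 17.1% against 17.9%. CCAAT was in 48% of windows of the other replication genes and in 82.4% of those of G2 and M phase genes. For TTTGAA these shares were 18% and 64.7%. The windows of the 36 genes had a median GC content of 61.3%, against 52.7% in all windows, and the E2F letters are rich in G and C. The sequences below are the 160 bases before the start of 6 genes that recur in the results, 2 helicase subunits, 2 origin factors, a clamp loader subunit and the polymerase subunit that had the lowest fold change under the drug, with the E2F letters in capitals.
Mcm5 (GRCm38.p6 chr8:75109349-75109508, plus strand): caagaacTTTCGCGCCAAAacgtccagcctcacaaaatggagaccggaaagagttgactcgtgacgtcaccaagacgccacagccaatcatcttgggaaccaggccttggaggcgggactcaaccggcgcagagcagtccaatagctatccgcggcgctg
Mcm6 (GRCm38.p6 chr1:128359706-128359865, minus strand): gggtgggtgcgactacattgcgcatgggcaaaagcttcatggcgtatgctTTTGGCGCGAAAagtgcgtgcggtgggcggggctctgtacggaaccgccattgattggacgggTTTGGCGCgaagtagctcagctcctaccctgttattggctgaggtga
Cdc6 (GRCm38.p6 chr11:98907991-98908150, plus strand): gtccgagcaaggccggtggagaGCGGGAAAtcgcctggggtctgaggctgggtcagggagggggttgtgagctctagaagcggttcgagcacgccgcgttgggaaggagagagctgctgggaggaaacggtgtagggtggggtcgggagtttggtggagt
Orc1 (GRCm38.p6 chr4:108579294-108579453, plus strand): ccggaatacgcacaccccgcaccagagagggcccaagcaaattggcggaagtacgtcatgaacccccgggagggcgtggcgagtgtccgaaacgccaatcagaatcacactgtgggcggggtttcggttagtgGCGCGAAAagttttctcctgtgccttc
Rfc3 (GRCm38.p6 chr5:151651209-151651368, minus strand): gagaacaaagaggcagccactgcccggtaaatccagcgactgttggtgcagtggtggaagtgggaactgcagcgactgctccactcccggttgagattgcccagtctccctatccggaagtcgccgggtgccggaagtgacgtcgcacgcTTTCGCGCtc
Pola1 (GRCm38.p6 chrX:93632156-93632315, minus strand): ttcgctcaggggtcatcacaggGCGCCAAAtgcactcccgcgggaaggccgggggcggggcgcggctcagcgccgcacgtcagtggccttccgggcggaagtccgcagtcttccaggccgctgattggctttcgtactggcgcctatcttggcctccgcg
These stretches show that the matches differ in place and number. Mcm5 has overlapping matches on both strands that begin 153 and 149 bases before the start, Mcm6 has an overlapping pair and a further match 47 bases before it, and within the stretches shown the others have 1 match each, that of Rfc3 10 bases and that of Orc1 27 bases before the start. Rfc3 has a further match that begins at the start itself, outside the stretch shown. Pola1, which was much lower under the drug, and Mcm5, which was higher, both hold the letters GCGCCAAA. Across the 36 genes the median log2 fold change with the drug was 0.59 for the 12 genes that hold the letters and 0.47 for the 24 that do not, with ranges of -1.92 to 1.18 and -1.27 to 1.17.

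With PDGF-BB, all 46 replication genes rose relative to p53n. Of the 17001 genes tested, 35.3% were called higher and 34% lower. In 42 of the 46 the rise was at least 2-fold, as in 12.7% of all genes, and in all 46 the lowest PDGF-BB library lay above the highest p53n library, as in 38.4% of all genes. The median log2 fold change was 2.01, against -0.016 over all genes. The largest rises were those of Mcm10, an initiation factor of the helicase (3.81), Cdc6 (3.58), Cdt1 (3.23), the ribonucleotide reductase subunit Rrm2 (3.23), Mcm3 (3.15) and the chromatin assembly subunit Chaf1b (3.03). Under 2-fold were Ccne1, which encodes cyclin E1 (0.60), Orc6 (0.94), Rfc1 (0.98) and Gins4 (0.98). The adjusted p did not exceed 1.05e-04 for any of the 46, the value of Pola1. Summed over the 46 genes, the level was 5841 to 6125 CPM in BB-p53n DMSO and 1422 to 1448 CPM in p53n libraries.

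**Figure D1:**
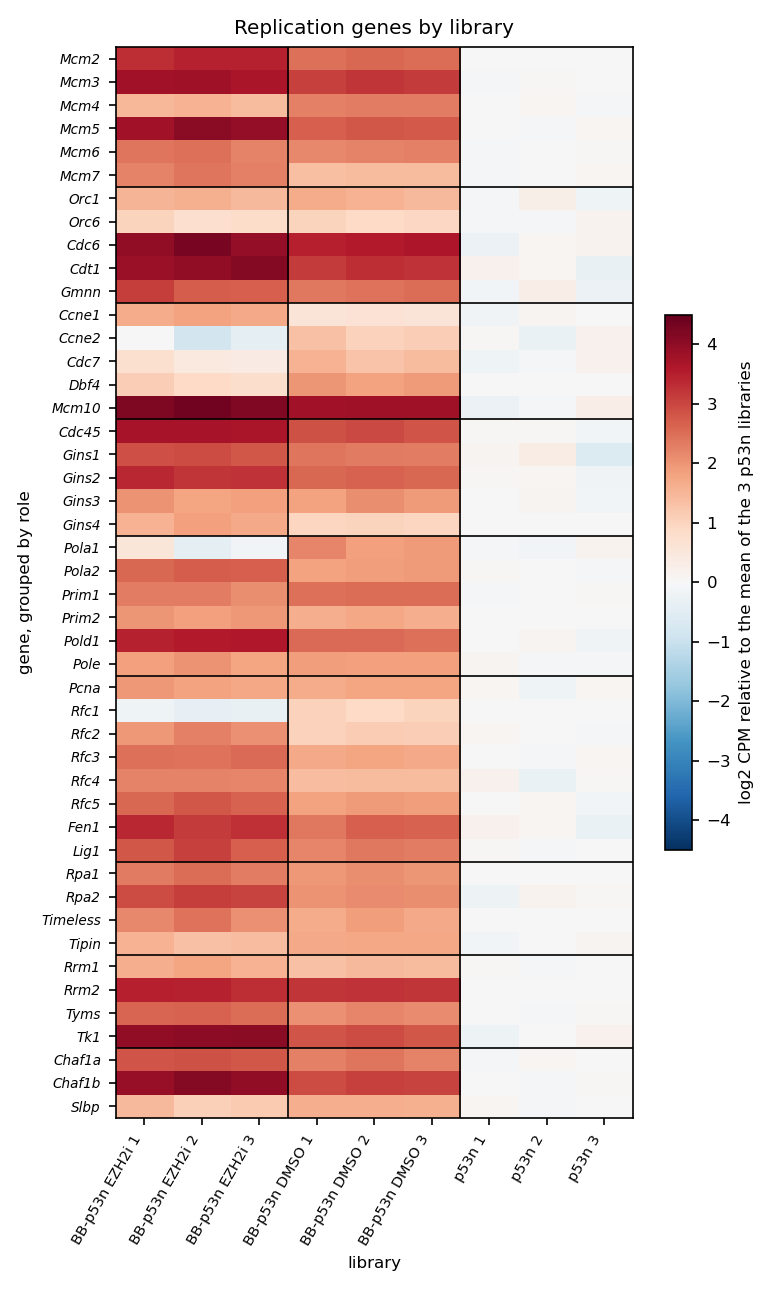
Level of each of the 46 genes (down the side, grouped by role) in each of the 9 libraries (across), as log2 CPM relative to the mean of the 3 p53n libraries. All 46 genes lie above p53n in the BB-p53n DMSO, while in BB-p53n EZH2i most are higher still and Ccne2, Pola1 and Rfc1 are near or below the p53n level.

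With tazemetostat, 32 of the 46 genes were higher than in BB-p53n DMSO and 9 were lower, and 5 were not called. Over all genes 37.3% were called higher and 35.6% lower, and the median log2 fold change was 0.49 for the 46 genes against 0.022 for all genes. The 9 genes that fell were Pola1 (-1.92), Ccne2 (-1.54), Rfc1 (-1.27), Dbf4 (-0.97), Cdc7 (-0.90), Mcm4 (-0.80), Slbp (-0.37), Tipin (-0.29) and Prim1 (-0.26), each of which was higher with PDGF-BB. Orc1, Orc6, Gins3, Pole and Pcna were not called. The largest rises were those of Mcm5 (1.18), the thymidine kinase gene Tk1 (1.17), Ccne1 (1.13) and Pold1 (1.04). These 4 rose at least 2-fold, as did 10.2% of all genes, and Pola1, Ccne2 and Rfc1 fell at least 2-fold, as did 19.5%. With the trend described below removed, none of these 7 changed by 2-fold. Drug and vehicle libraries did not overlap in 31 genes that were higher (38.4% of all genes) and in 9 that were lower (36.9%). The summed level was 7814 to 8527 CPM in BB-p53n EZH2i and 5841 to 6125 CPM in BB-p53n DMSO libraries.

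These drug values moved with base composition. Across the 46 genes, Spearman's rho between the log2 fold change and the GC content of the transcript was 0.68, and it was 0.73 across 12786 well-expressed genes. For exon length rho was -0.071 across the 46 genes and -0.43 across the 12786. This is a description across genes, which share libraries and are not replicates. The 9 genes that fell had GC contents of 36.3% to 46.5% with a median of 43.8%, and the 32 that rose had 43.0% to 61.0% with a median of 50.7%. Within libraries, rho between a gene's level relative to its mean over the 9 libraries and its GC content was 0.61 to 0.68 in BB-p53n EZH2i and -0.49 to -0.39 in BB-p53n DMSO, and -0.46 to -0.39 in p53n. The same rho with exon length was -0.39 to -0.37 in BB-p53n EZH2i, 0.25 to 0.29 in BB-p53n DMSO and 0.22 to 0.28 in p53n. The share of mitochondrial fragments was 1.34% to 1.54% in BB-p53n EZH2i, 2.44% to 2.63% in BB-p53n DMSO and 4.46% to 5.76% in p53n libraries.

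The analysis was therefore repeated after removing, for each library, the trend of its levels on GC content and exon length. This left 16652 genes. With it removed, 34 of the 46 genes were higher with the drug (29% of all genes), 4 were lower (28.6% of all genes) and 8 were not called. Of the 9 genes that fell, Mcm4, Cdc7, Pola1 and Rfc1 stayed lower, Dbf4, Prim1, Tipin and Slbp were higher, and Ccne2 was not called. Of the 32 that rose, 27 stayed higher, and Cdt1, Gmnn, Fen1, Lig1 and Timeless were not called. The order of the rises changed as well. The largest values were then those of Rfc3 (1.45), Rrm1 (1.42), Rfc4 (1.33), Pola2 (1.27) and Prim2 (1.14), and Mcm5 was at 0.81, Tk1 at 0.89, Ccne1 at 0.58 and Pold1 at 0.33. The median of the 46 was 0.43, and rho with GC content was -0.13. For BB-p53n DMSO against p53n the same step left all 46 genes higher (33.5% of all genes), with a median of 1.97. The part of base composition, of exon length and of the mitochondrial share in these differences was not tested.

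**Figure D2:**
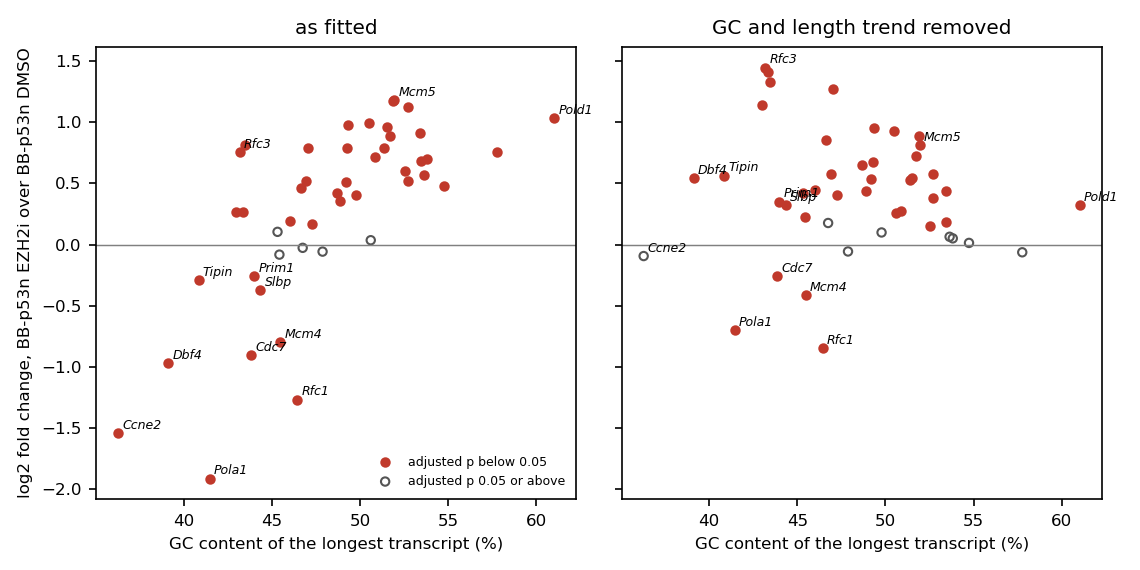
Log2 fold change of BB-p53n EZH2i over BB-p53n DMSO (vertical) against transcript GC content in percent (horizontal) for the 46 genes, as fitted on the left and after removal of the trend on the right. Filled points have an adjusted p below 0.05; Pola1, Rfc1, Mcm4 and Cdc7 lie below 0 in both panels, and Dbf4, Prim1, Tipin and Slbp change side.

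The helicase subunits Mcm2 to Mcm7, which form the ring that is loaded at origins and later unwinds DNA, were all higher with PDGF-BB, and with the drug 5 were higher and Mcm4 was lower. Mcm3 (GRCm39 chr1:20873192-20890536, minus strand) had 527, 541 and 493 CPM in BB-p53n EZH2i, 329, 359 and 338 CPM in BB-p53n DMSO, and 37.0, 40.0 and 38.9 CPM in p53n. The groups did not overlap, and its log2 fold change with PDGF-BB, 3.15 ± 0.07, was the largest of the ring. Mcm7 had the smallest, 1.40 ± 0.07, from 320.5, 360.3 and 325 CPM in BB-p53n EZH2i, 172, 182 and 179.8 CPM in BB-p53n DMSO, and 63.9, 66.9 and 71.3 CPM in p53n. Mcm5 (GRCm39 chr8:75836197-75855067, plus strand) had 739.5, 908 and 837 CPM in BB-p53n EZH2i, 352, 379 and 362 CPM in BB-p53n DMSO, and 53.6, 51.1 and 57.4 CPM in p53n. Every drug-treated library was well above every vehicle library, with a log2 fold change of 1.18 ± 0.08 (adjusted p = 2.88e-11), or 0.81 after removal of the trend. Mcm4 (GRCm39 chr16:15441761-15455264, minus strand) had 158, 169 and 154 CPM in BB-p53n EZH2i, 275, 280.2 and 283 CPM in BB-p53n DMSO, and 55.7, 59.9 and 54.7 CPM in p53n. All drug-treated libraries lay below all vehicle libraries for this subunit (-0.80 ± 0.06, adjusted p = 8.89e-10), and the fall was -0.41 with the trend removed (adjusted p = 9.03e-06). Mcm6 had 553, 576 and 489 CPM in BB-p53n EZH2i, 463, 484 and 490.3 CPM in BB-p53n DMSO, and 99.1, 102 and 107.9 CPM in p53n. Drug and vehicle libraries overlapped, and its call as higher (0.17 ± 0.07, adjusted p = 0.0309) was lost without any of 7 of the 9 libraries, p53n replicates 1 and 3, all BB-p53n DMSO replicates and BB-p53n EZH2i replicates 1 and 2, with adjusted p of 0.0559 to 0.225.

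Per kilobase of exon, the spread of the 6 subunits can be given for each group. These levels divide by all annotated exon bases and carry the GC trend above, so ranks between genes are descriptive only. The highest mean was 4.64 times the lowest in BB-p53n EZH2i, 2.55 times in BB-p53n DMSO and 2.66 times in p53n. Mcm5 had 207 ± 21.2 CPM per kb in BB-p53n EZH2i, 91.3 ± 3.42 in BB-p53n DMSO and 13.5 ± 0.795 in p53n (mean ± SD, n = 3). Mcm4 had 44.7 ± 2.26 CPM per kb in BB-p53n EZH2i, 77.9 ± 1.21 in BB-p53n DMSO and 15.8 ± 0.773 in p53n. With the drug Mcm5 came first and Mcm4 last, whereas Mcm6 had the highest mean in BB-p53n DMSO, at 103 ± 3.07 CPM per kb, and in p53n, at 22.1 ± 0.965. In BB-p53n DMSO, Mcm5 and Mcm3 (91.1 ± 4.17) did not differ beyond their spread. These levels are as counted. With the trend removed the drug change was smaller in size for Mcm5 (0.81 in place of 1.18), Mcm4 (-0.41 in place of -0.80), Mcm7 (0.44 in place of 0.91) and Mcm3 (0.16 in place of 0.61), and larger for Mcm6 (0.41 in place of 0.17).

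**Figure D3:**
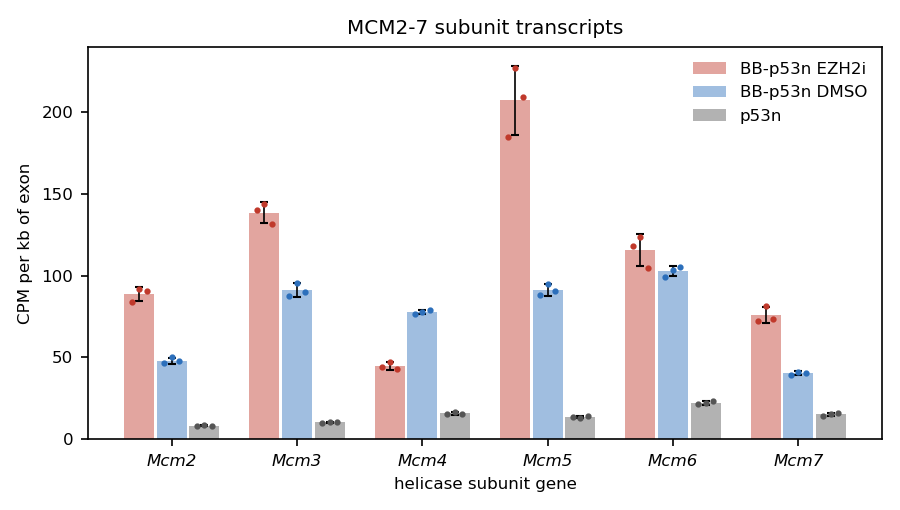
CPM per kb of exon for the 6 helicase subunit genes in BB-p53n EZH2i, BB-p53n DMSO and p53n. Bars are means, error bars are SD of 3 libraries and points are libraries; Mcm5 reaches 207 CPM per kb with the drug while Mcm4 is below its vehicle level.

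Among the factors that load the ring, Cdc6, Cdt1 and Gmnn were higher with PDGF-BB and higher again with the drug, and Orc1 and Orc6 were higher with PDGF-BB and not called with the drug as counted. Cdc6 (GRCm39 chr11:98798627-98814766, plus strand), the ATPase that brings the ring to origins, had 141, 169 and 136 CPM in BB-p53n EZH2i, 99.5, 105 and 109 CPM in BB-p53n DMSO, and 7.22, 9.20 and 9.84 CPM in p53n. No library of one group reached another group, and the log2 fold changes were 3.58 ± 0.11 with PDGF-BB and 0.51 ± 0.09 with the drug. Cdt1, the partner of CDC6 in loading, had 125, 136 and 149 CPM in BB-p53n EZH2i, 75.3, 85.6 and 81.7 CPM in BB-p53n DMSO, and 9.72, 9.12 and 6.86 CPM in p53n. The drug-treated and vehicle libraries did not overlap as counted (0.76 ± 0.09, adjusted p = 3.59e-07), but with the trend removed the value was -0.063 and not called (adjusted p = 0.449); its transcript has a GC content of 57.8%. Gmnn, which encodes the CDT1 inhibitor geminin, had 48.4, 36.4 and 36.0 CPM in BB-p53n EZH2i, 28.8, 30.6 and 32.1 CPM in BB-p53n DMSO, and 5.17, 6.91 and 4.63 CPM in p53n. Its groups did not overlap either. Its drug value was 0.41 ± 0.12, or 0.10 and not called with the trend removed (adjusted p = 0.508). It lies on chromosome 13, whose genes were shifted by -0.47 relative to the other autosomes in this comparison. This shift and those of other chromosomes below compare medians of values as counted, which carry the GC and length trend. Orc6, a subunit of the origin recognition complex, had 61.7, 52.1 and 55.2 CPM in BB-p53n EZH2i, 62.0, 57.6 and 59.5 CPM in BB-p53n DMSO, and 29.8, 29.0 and 34.3 CPM in p53n. Drug and vehicle libraries overlapped for this subunit (-0.082 ± 0.08, adjusted p = 0.379), and with the trend removed it was called higher (0.23, adjusted p = 0.00627). Its rise with PDGF-BB (0.94 ± 0.08) was the smallest of the loading factors. Orc1, the ATPase subunit of the complex, was at 3.55 ± 0.157 CPM per kb in BB-p53n EZH2i, 3.62 ± 0.2997 in BB-p53n DMSO and 1.23 ± 0.207 in p53n, among the 3 lowest of the 46 genes in every group.

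The genes that fire origins split with the drug. Mcm10 (GRCm39 chr2:4994525-5017602, minus strand) had 144, 157 and 139.9 CPM in BB-p53n EZH2i, 107, 111 and 111 CPM in BB-p53n DMSO, and 6.59, 7.29 and 9.63 CPM in p53n. It had the largest rise of all 46 genes with PDGF-BB (3.81 ± 0.11) and rose further with the drug (0.42 ± 0.09). Ccne1 had 55.6, 62.0 and 57.2 CPM in BB-p53n EZH2i, 26.2, 27.6 and 26.2 CPM in BB-p53n DMSO, and 15.7, 19.1 and 18.0 CPM in p53n, and Ccne2, which encodes the second E-type cyclin, had 15.3, 8.84 and 11.7 CPM in BB-p53n EZH2i, 39.4, 32.3 and 33.7 CPM in BB-p53n DMSO, and 16.3, 12.6 and 18.1 CPM in p53n. The drug-treated libraries were all above the vehicle for Ccne1 (1.13 ± 0.09, adjusted p = 3.97e-10) and all below it for Ccne2 (-1.54 ± 0.18, adjusted p = 4.75e-06). With the trend removed, the Ccne1 value was 0.58 and still called, and the Ccne2 value was -0.094 and not called (adjusted p = 0.412); the Ccne2 transcript has the lowest GC content of the 46, 36.3%. Cdc7, the firing kinase, had 34.1, 28.2 and 26.8 CPM in BB-p53n EZH2i, 60.5, 50.9 and 55.6 CPM in BB-p53n DMSO, and 18.2, 20.02 and 23.8 CPM in p53n, and Dbf4, its activating partner, had 56.6, 49.1 and 45.4 CPM in BB-p53n EZH2i, 105, 91.7 and 99.2 CPM in BB-p53n DMSO, and 26.0, 25.9 and 26.9 CPM in p53n. Both fell with the drug, by 0.90 and 0.97 on the log2 scale, with no overlap of libraries. With the trend removed Cdc7 stayed lower (-0.26, adjusted p = 0.0132) and Dbf4 was higher (0.54, adjusted p = 4.33e-06).

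Cdc45 and the GINS genes, which complete the active helicase, were all higher with PDGF-BB, and 4 of 5 were higher again with the drug. Cdc45 had 138, 139 and 135 CPM in BB-p53n EZH2i, 78.0, 83.1 and 76.3 CPM in BB-p53n DMSO, and 11.1, 10.9 and 9.80 CPM in p53n. The groups were fully separate, at log2 fold changes of 2.89 ± 0.08 with PDGF-BB and 0.79 ± 0.07 with the drug. Gins4 had 71.2, 86.8 and 78.8 CPM in BB-p53n EZH2i, 47.7, 48.1 and 47.9 CPM in BB-p53n DMSO, and 23.9, 24.2 and 24.7 CPM in p53n, the smallest rise with PDGF-BB in this group (0.98 ± 0.08). Gins3 had 22.4, 18.96 and 19.6 CPM in BB-p53n EZH2i, 19.4, 23.4 and 20.7 CPM in BB-p53n DMSO, and 5.52, 5.91 and 5.01 CPM in p53n. Drug and vehicle overlapped for Gins3 (-0.058 ± 0.11, adjusted p = 0.637), and the value with the trend removed was -0.057. Gins1 and Gins2 rose with the drug by 0.52 and 0.68, and with the trend removed their values were 0.58 and 0.19 (adjusted p = 0.0369 for Gins2), while that of Gins4 was 0.28 in place of 0.72. For Gins2, 67.3% of the exon bases are shared with Gse1 on the opposite strand, and fragments there cannot be assigned between the 2 genes.

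The polymerase genes rose together with PDGF-BB, by 1.66 to 2.52, and separated with the drug. Pold1, the catalytic subunit of the lagging-strand polymerase delta, had 208, 225 and 229 CPM in BB-p53n EZH2i, 109, 109 and 105 CPM in BB-p53n DMSO, and 19.1, 20.5 and 16.7 CPM in p53n. As counted this was the largest drug rise among polymerases (1.04 ± 0.07). With the trend removed it was 0.33, below Pola2, Prim2 and Prim1, at a transcript GC content of 61.0%, the highest of the 46. Pola1 (GRCm39 chrX:92348373-92675761, minus strand), the catalytic subunit of polymerase alpha, which starts new strands with primase, had 35.6, 18.3 and 22.4 CPM in BB-p53n EZH2i, 111, 87.5 and 92.2 CPM in BB-p53n DMSO, and 23.4, 22.3 and 27.1 CPM in p53n. The drug-treated libraries all lay far below the vehicle libraries and straddled the p53n level, with BB-p53n EZH2i replicate 1 the highest of the 3. The log2 fold change was -1.92 ± 0.23 with the drug (adjusted p = 0.000119) and -0.70 with the trend removed (adjusted p = 6.3e-05). Pola1 lies on chromosome X, whose genes had a median log2 fold change 0.47 below that of the autosomes in this comparison. Pola2, the accessory subunit of the same enzyme, had 114, 126 and 124 CPM in BB-p53n EZH2i, 67.2, 70.9 and 72.2 CPM in BB-p53n DMSO, and 19.96, 19.1 and 18.2 CPM in p53n. It rose with the drug in libraries that did not overlap (0.79 ± 0.07, or 1.27 with the trend removed), and it lies, like Fen1, on chromosome 19, whose genes were shifted by 0.41 relative to the other autosomes. Of the primase subunits, Prim1 fell slightly (-0.26 ± 0.07) and Prim2, which had 104, 94.5 and 101 CPM in BB-p53n EZH2i, 80.5, 86.9 and 81.2 CPM in BB-p53n DMSO, and 26.7, 25.7 and 26.2 CPM in p53n, rose slightly (0.27 ± 0.07); with the trend removed both were higher, at 0.35 and 1.14. Pole, the leading-strand polymerase, had 122, 138 and 116 CPM in BB-p53n EZH2i, 125, 121 and 122 CPM in BB-p53n DMSO, and 37.3, 32.4 and 31.8 CPM in p53n, overlapping libraries and a value of 0.036 ± 0.08 (adjusted p = 0.688), which was 0.26 and called with the trend removed (adjusted p = 0.00308).

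Of the clamp loader, which opens the PCNA ring around DNA, Rfc2, Rfc3, Rfc4 and Rfc5 were higher with the drug and the large subunit Rfc1 was lower. Rfc1 (GRCm39 chr5:65419193-65493013, minus strand) had 71.2, 62.0 and 64.5 CPM in BB-p53n EZH2i, 165, 151 and 161 CPM in BB-p53n DMSO, and 80.1, 82.3 and 79.5 CPM in p53n. With the drug all libraries lay below both other groups (-1.27 ± 0.07, adjusted p = 5.24e-12), and the fall was -0.85 with the trend removed, the largest of the 46 genes there. Rfc2 had 163, 198 and 173 CPM in BB-p53n EZH2i, 86.5, 91.2 and 89.5 CPM in BB-p53n DMSO, and 44.8, 41.2 and 39.0 CPM in p53n, no overlap, and log2 fold changes of 1.00 ± 0.08 with the drug and 0.93 with the trend removed. Rfc3, Rfc4 and Rfc5 rose by 0.76, 0.82 and 0.79 with the drug, and by 1.45, 1.33 and 0.53 with the trend removed. Pcna itself had 101, 90.0 and 85.9 CPM in BB-p53n EZH2i, 81.8, 87.4 and 88.5 CPM in BB-p53n DMSO, and 27.3, 22.4 and 27.6 CPM in p53n, with drug and vehicle overlapping (0.10 ± 0.08, adjusted p = 0.267), and it was called higher with the trend removed (0.42, adjusted p = 1.55e-05). Its counts are uncertain, because the near-identical Pcna-ps2 took 22406 fragments over the 9 libraries against 16579 for Pcna. Pcna-ps2 was not called with the drug, either as counted (0.061, adjusted p = 0.426) or with the trend removed (0.052, adjusted p = 0.46). Fen1, which trims Okazaki fragments, had 10.3, 8.73 and 9.51 CPM in BB-p53n EZH2i, 5.14, 6.28 and 6.14 CPM in BB-p53n DMSO, and 1.11, 1.04 and 0.799 CPM in p53n. It was higher with PDGF-BB (2.56 ± 0.19) and with the drug (0.70 ± 0.15, or 0.051 and not called with the trend removed). However, 84.2% of its exon bases are shared with Tmem258 and Gm10143 on the opposite strand, where fragments cannot be assigned. Per kb it was the lowest of the 46 genes in BB-p53n DMSO and p53n, but that level divides by the shared bases too. Lig1, the ligase that joins Okazaki fragments, rose with the drug by 0.57 as counted and was at 0.064 and not called with the trend removed.

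Single-strand binding and fork protection genes were all higher with PDGF-BB, and with the drug Tipin was lower and the others named here were higher. Rpa2, a subunit of the single-strand binding complex, had 149.5, 168 and 162 CPM in BB-p53n EZH2i, 78.4, 85.4 and 82.7 CPM in BB-p53n DMSO, and 16.8, 21.7 and 20.1 CPM in p53n, separate in all 3 groups. Its drug value was 0.96 ± 0.08, or 0.55 with the trend removed, and Rpa1 rose by 0.36, or 0.44. Tipin, which with Timeless protects the fork, had 70.2, 59.8 and 62.0 CPM in BB-p53n EZH2i, 78.0, 78.9 and 78.6 CPM in BB-p53n DMSO, and 21.7, 23.9 and 25.8 CPM in p53n. It was lower with the drug as counted (-0.29 ± 0.08, adjusted p = 0.00244) and higher with the trend removed (0.56), whereas its partner Timeless was higher as counted (0.48) and not called with the trend removed (0.014).

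Genes of nucleotide supply were all higher with PDGF-BB and all higher again with the drug, with or without the trend removed. Tk1, which phosphorylates thymidine, had 143, 146 and 147 CPM in BB-p53n EZH2i, 63.6, 68.1 and 61.9 CPM in BB-p53n DMSO, and 7.67, 8.95 and 10.1 CPM in p53n, fully separate groups, and log2 fold changes of 2.86 ± 0.09 with PDGF-BB and 1.17 ± 0.08 with the drug. Tk1, Cdc6 and Rpa1 lie on chromosome 11, whose genes were shifted by 0.42 in BB-p53n DMSO against p53n relative to the other autosomes. With the drug the shift of chromosome 11 was 0.32. It was 0.31 for chromosome 7 (Ccne1, Pold1, Lig1 and Rrm1) and -0.30 for chromosome 1 (Mcm3, Mcm6 and Prim2). The part of these shifts in the values of single genes was not tested. Rrm2, the S-phase subunit of ribonucleotide reductase, had 388, 377 and 344 CPM in BB-p53n EZH2i, 318, 330.4 and 322 CPM in BB-p53n DMSO, and 34.0, 35.2 and 34.5 CPM in p53n. As counted its drug rise was the smallest of the 4, 0.19 ± 0.06 (adjusted p = 0.00982), and the call was lost without p53n replicate 1 (adjusted p = 0.116) and without p53n replicate 3 (adjusted p = 0.11), while with the trend removed the value was 0.44. Rrm1, the large subunit, had 600.5, 657 and 574 CPM in BB-p53n EZH2i, 479, 529.8 and 518 CPM in BB-p53n DMSO, and 200.2, 189 and 192 CPM in p53n, and it rose with PDGF-BB by 1.39 and with the drug by 0.26, or by 1.42 with the trend removed. Tyms, which makes thymidylate, rose by 2.13 with PDGF-BB and 0.46 with the drug, or 0.86 with the trend removed.

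In chromatin assembly, Chaf1b, a subunit of the chromatin assembly factor that places histones behind the fork, had 162, 189 and 171 CPM in BB-p53n EZH2i, 83.3, 91.5 and 89.5 CPM in BB-p53n DMSO, and 11, 10.2 and 11.2 CPM in p53n. It was separate in all 3 groups (3.03 ± 0.08 with PDGF-BB and 0.98 ± 0.07 with the drug), and the trend-removed drug value was 0.95. Chaf1a rose by 2.32 and 0.52, with 52.5% of its exon bases shared with Ubxn6. Slbp, which binds the stem-loop of histone mRNAs, had 63.9, 48.3 and 52.0 CPM in BB-p53n EZH2i, 71.1, 71.8 and 70.2 CPM in BB-p53n DMSO, and 24.4, 22.0 and 23.1 CPM in p53n, and its drug value was -0.37 ± 0.09 as counted and 0.32 with the trend removed.

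Set against p53n, the drug-treated PDGF-BB cells still had 43 of the 46 genes higher (40.3% of all genes) and 1 lower (41.7% of all genes), with a median log2 fold change of 2.38 against -0.044 over all genes. The largest differences were those of Mcm10 (4.23), Cdc6 (4.09), Tk1 (4.04) and Chaf1b (4.01). Rfc1 was lower (-0.29 ± 0.07, adjusted p = 0.000857), and Pola1 (0.08 ± 0.24, adjusted p = 0.768) and Ccne2 (-0.38 ± 0.18, adjusted p = 0.0731) were not called. Ccne2 was called lower with RLE size factors (-0.42, adjusted p = 0.0336), DESeq2 (-0.43, adjusted p = 0.0136), no filter on low counts (-0.41, adjusted p = 0.000676) and a replicate block (-0.40, adjusted p = 0.00529), and also without p53n replicate 2 (-0.51, adjusted p = 0.0192) and without BB-p53n EZH2i replicate 1 (-0.59, adjusted p = 0.00174). With the trend removed, 45 genes were higher (36.7% of all genes), including Pola1 (1.41) and Ccne2 (1.52), and Rfc1 was not called (0.038). This comparison uses libraries of both others, so its calls are not independent of them.

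Ratios between genes that act as partners or alternatives were compared in each library, per kb of exon. Over 5 pairs and 3 comparisons, 15 exact permutation tests (two-sided) were made, and with 3 libraries against 3 none can give a p below 0.1. The smallest adjusted value obtained was 0.125. The log2 ratio of Ccne2 to Ccne1 was -2.25, -3.20 and -2.69 in BB-p53n EZH2i, and 0.19, -0.17 and -0.027 in BB-p53n DMSO libraries. That difference of -2.71 (exact permutation p = 0.1, adjusted 0.125) was -0.67 with the trend removed. The log2 ratio of Pole to Pold1 was -1.97, -1.90 and -2.18 in BB-p53n EZH2i and -1.001, -1.05 and -0.98 in BB-p53n DMSO, a difference of -1.004 (exact permutation p = 0.1) that was -0.071 with the trend removed. Rrm2 over Rrm1 was 1.40, 1.31 and 1.31 in BB-p53n DMSO and -0.57, -0.43 and -0.49 in p53n, a difference of 1.83 (exact permutation p = 0.1) that was 1.70 with the trend removed. With the drug that ratio differed from the vehicle by -0.071 (exact permutation p = 0.3), and by -0.96 with the trend removed. Cdt1 over its inhibitor Gmnn was higher in every BB-p53n DMSO library than in every p53n library, by 0.78 (exact permutation p = 0.1; 0.88 with the trend removed), whereas with the drug the groups overlapped (0.37, exact permutation p = 0.3) and the difference was -0.14 with the trend removed. Dbf4 over Cdc7 differed by 0.47 with PDGF-BB (exact permutation p = 0.1) and by -0.064 with the drug (exact permutation p = 0.2). Without the trend the drug difference of that pair turned to 0.80, with ratios of 0.16, 0.56 and 0.34 in BB-p53n EZH2i against -0.55, -0.37 and -0.41 in BB-p53n DMSO libraries, which did not overlap.

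**Figure D4:**
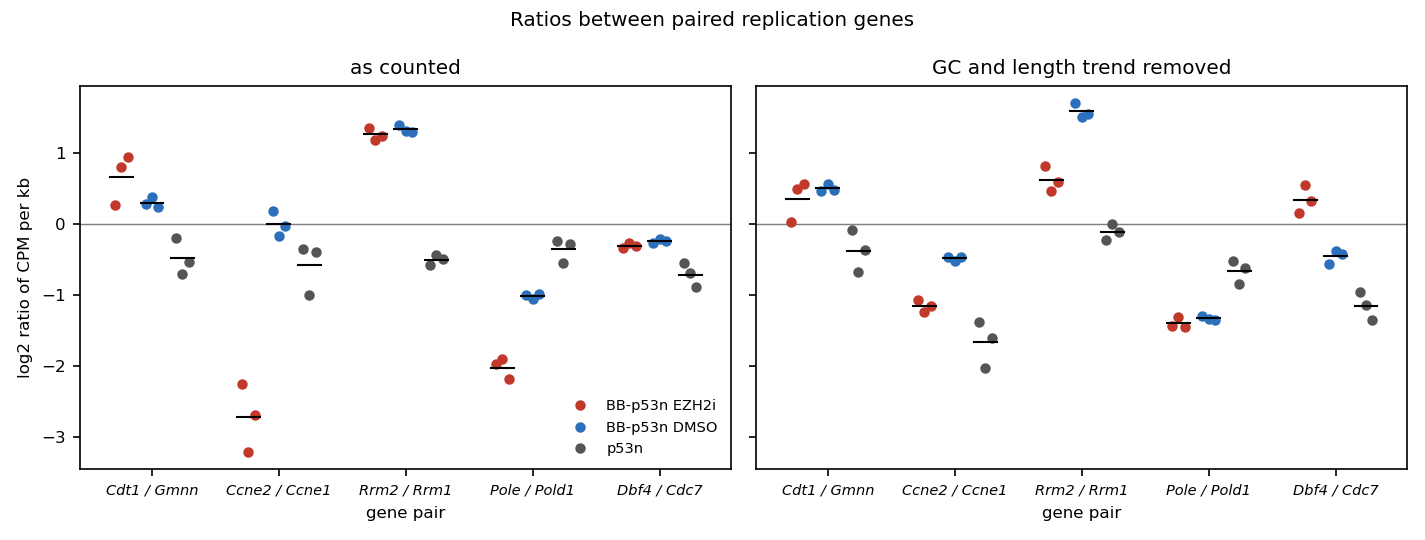
Log2 ratio of CPM per kb between 5 pairs of replication genes in each library (points) with group means (lines), as counted on the left and after removal of the trend on the right. The Ccne2 to Ccne1 difference between BB-p53n EZH2i and BB-p53n DMSO is -2.71 on the left and -0.67 on the right, and the Pole to Pold1 difference is -1.004 on the left and -0.071 on the right.

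The other 48 replication genes examined hold further subunits and regulators of the same complexes. With PDGF-BB 38 were higher (35.3% of all genes), 5 lower (34% of all genes) and 5 not called, at a median of 1.27. The largest values were Pole2, a polymerase epsilon subunit (3.09), Uhrf1, which helps to copy DNA methylation (3.01), and the histone chaperone Asf1b (2.94), and the smallest were Pold4 (-0.69), Orc3 (-0.68) and the p53-inducible reductase subunit Rrm2b (-0.64). With the drug 14 were higher (37.3% of all genes) and 25 lower (35.6%), at a median of -0.26. After removal of the trend 20 were higher (29% of all genes) and 14 lower (28.6%), at a median of 0.072. As counted, Pold2 (1.05), Pold4 (1.00) and Chtf18 (0.96) had the largest values, and Atad5 (-2.02), Hells (-1.94) and Rrm2b (-1.85) the smallest. With the trend removed Pold2 (0.14) and Pold4 (0.070) were not called. Chtf18 was then at 0.30, Atad5 at -0.92, Hells at -0.40 and Rrm2b at -0.36. The 14 that rose had a median transcript GC content of 52.7% and the 25 that fell 45.1%. Against p53n the drug-treated cells had 32 of these genes higher (40.3% of all genes) and 8 lower (41.7%) as counted. Values ran from Asf1b (3.90), Uhrf1 (3.70) and Pole2 (3.23) at the top to Rrm2b (-2.48), Orc4 (-1.98) and Orc3 (-1.61) at the bottom. With the trend removed 39 were higher (36.7% of all genes) and 4 lower (41.7%). Asf1b, Uhrf1 and Pole2 were then at 3.24, 3.08 and 3.63 and Rrm2b at -0.76, and Orc4 (0.063) and Orc3 (0.099) were not called. Whether the drug acted differently on the 46 genes and on these 48 was not tested.

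The median coefficient of variation over the 46 genes was 7.6% in BB-p53n EZH2i, 4.2% in BB-p53n DMSO and 6.9% in p53n, and it was highest for Pola1 in BB-p53n EZH2i (35.6%) and in BB-p53n DMSO (12.6%) and for Gins1 in p53n (30.7%). As counted per kb of annotated exon, with the limits on ranks between genes given above, the highest of the 46 were Mcm5, Mcm3 and Rrm2 in BB-p53n EZH2i. They were Rrm2, Mcm6 and Mcm5 in BB-p53n DMSO, and Mcm6, Gins4 and Rrm1 in p53n. The lowest were Pola1, Ccne2 and Orc1 in BB-p53n EZH2i, Fen1, Orc1 and Gins3 in BB-p53n DMSO, and Fen1, Mcm10 and Orc1 in p53n. The median level was 28.1 CPM per kb in BB-p53n EZH2i, 19.5 in BB-p53n DMSO and 4.45 in p53n.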

How the data were processed

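Polyadenylated RNA of 9 libraries was sequenced as 150 bp pairs from 500 ng of total RNA each, per the labels' protocols. The authors deposited 1 table of raw counts of fragments per gene, made with featureCounts 1.6.3 over exons from pairs mapped at both ends (minimum quality 20) on Ensembl release 108 of GRCm39, per the file headers. No strand option and no option for fragments that overlap several genes appear there, so fragments of genes that overlap on opposite strands cannot be assigned. The submitters' processing notes name Trimmomatic and Subread without settings. Every value column belonged to a sample of the series. Of 56980 gene identifiers 52073 (91.4%) had a symbol. Coordinates of genes are those of the deposited table (GRCm39); those of promoters are from RefSeq on GRCm38.p6, and GC content came from GENCODE transcripts joined by gene identifier.

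Genes were filtered with filterByExpr and scaled with TMM in edgeR 4.0.16 (R 4.3.3), and 1 quasi-likelihood model with the group as its only term was fitted to all 9 libraries (common biological coefficient of variation 0.0815). All adjusted p-values of genes are Benjamini-Hochberg values from that test over all genes tested. The GC and length trend was fitted per library with natural splines (5 degrees of freedom each) on genes above log2 CPM 1 and entered as an offset; 97.9% of tested genes had a GC value. Pair ratios used log2 of counts plus 0.5 (the 0.5 scaled by library size), divided by library size and exon length. Scripts were tested on simulated data. Alternatives were RLE factors, total counts, no filter, DESeq2 1.42.0, fits of 2 groups, a replicate block, genes outside chromosomes X, Y and MT, and each library left out. The members and lists were chosen with earlier results of these data known. Named were, for each role and comparison, the genes with the largest and smallest log2 fold change, genes called in opposite directions in the 2 design comparisons, genes on shifted chromosomes, and the 3 highest and 3 lowest of the other replication genes; further genes were named after their values were seen. Intervals of counting error are not given, since the labels name no molecular identifiers. The labels give no batch or date. Libraries of a group differed by more than sampling noise (median chi-square per gene 1.41 to 4.26), so none was counted as a repeat.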

Additional observations from a re-analysis of the deposited data

How the results depend on the processing

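In BB-p53n DMSO against p53n the 46 genes kept their direction and call under the alternatives run (45 genes without chromosomes X, Y and MT, since Pola1 lies on X); the median log2 fold change was 1.93 with total counts, 2.08 without a filter, 2.09 without chromosomes X, Y and MT and 2.02 to 2.14 with 1 library left out. Other replication genes called lower there were 3 without a filter and without chromosomes X, Y and MT, and 3 to 5 with 1 library left out. In BB-p53n EZH2i against BB-p53n DMSO the GC and length trend changed most: the genes called lower were 4 with it removed, with or without the replicate block, other replication genes called lower 14 in both fits, and the values that changed sign were Orc1 0.18, Orc6 0.23 (0.22 with the block; then called higher), Cdt1 -0.063, Dbf4 0.54, Prim1 0.35, Tipin 0.56 (0.57 with the block) and Slbp 0.32, the other values being the same with the block. In the same comparison the median was 0.39 without a filter, Pole was -0.068 without a filter, -0.054 in the fit of 2 groups and -0.052 without chromosomes X, Y and MT, and with 1 library left out Pole had -0.037 to 0.086, Orc1 -0.10 to 0.034 and Gins3 -0.14 to 0.020. Mcm6, Rrm2 and Prim2 lost their call without a filter, with log2 fold changes of 0.069, 0.090 and 0.16, and Mcm6 and Rrm2 also in the fit of 2 groups and without chromosomes X, Y and MT. In BB-p53n EZH2i against p53n the genes called lower were 2 with RLE factors, without a filter, with DESeq2 and with the replicate block, 0 with the trend removed (also with the block) and 1 to 2 with 1 library left out; the gene added was Ccne2. There the other replication genes called lower were 4 and the median was 2.49 with the trend removed, with or without the block, Ccne2 was 1.52 and Rfc1 0.038 (0.036 with the block), and with 1 library left out Pola1 ranged from -0.23 to 0.29. The pair ratios changed sign with the trend removed, a setting chosen after seeing the data together with their leave-one-out values, for Cdt1 over Gmnn (-0.14) and Dbf4 over Cdc7 (0.80) with the drug, and for Ccne2 over Ccne1 in BB-p53n EZH2i against p53n (0.52). Why these values moved was not tested. Deviations of BB-p53n EZH2i and BB-p53n DMSO libraries with the same replicate number correlated at 0.39, 0.31 and -0.042. Those of either group with p53n correlated at -0.24 to 0.069. Libraries with unlike numbers were not compared, so whether the numbers pair the samples was not tested. The block alone changed no other call than that of Ccne2 in BB-p53n EZH2i against p53n (-0.40, adjusted p = 0.00529). Scaling choices moved the median of all genes by less than 0.1.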

Other observations

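Genes of G2 and mitosis, the phases that follow replication, were read as a second cell cycle list. With PDGF-BB, 20 of the 20 were higher than in p53n (35.3% of all genes), at a median log2 fold change of 1.96, from Ccnb2 (0.56) to Pttg1, which encodes securin (3.67). With the drug 11 were higher (37.3% of all genes) and 8 lower (35.6%) than in BB-p53n DMSO, at a median of 0.20. Among those that rose were Pttg1 (0.99), Cdc20, an activator of the anaphase-promoting complex (0.98), and the mitotic kinase gene Plk1 (0.94). Among those that fell were Cenpf (-2.68) and Cenpe (-2.40), which encode kinetochore proteins, and the proliferation marker Mki67 (-2.67). These values are as counted. After removal of the GC and length trend Plk1 (0.13) was not called. Pttg1 was then at 1.20, Cdc20 at 0.17, Cenpf at -1.28 and Cenpe at -1.37. Mki67 had 170, 150 and 160 CPM in BB-p53n EZH2i, 1225, 899 and 928 CPM in BB-p53n DMSO, and 339, 309 and 336 CPM in p53n. All drug-treated libraries lay below both other groups for this gene, and its drug value was -2.01 with the GC and length trend removed. With that trend removed 7 of the 20 were higher (29% of all genes) and 7 lower (28.6%) with the drug, at a median of -0.016. Set against p53n, the drug-treated cells had 15 higher (40.3% of all genes) and 3 lower (41.7%) as counted, and 17 higher (36.7%) and 1 lower (41.7%) with the trend removed. The summed level was 3374 to 3485 CPM in BB-p53n EZH2i, 4039 to 4488 CPM in BB-p53n DMSO and 1099 to 1242 CPM in p53n libraries. The genes named here were chosen after their values were seen, and all fold changes are log2 values from edgeR's quasi-likelihood test, called at a Benjamini-Hochberg adjusted p below 0.05.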
